A study of Mus musculus with 36 samples.

Results

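Bidirectional protein-coding promoters are stretches of DNA from which 2 protein-coding genes are transcribed away from each other, one on each strand. They were taken here as pairs of genes on opposite strands of chromosomes 1 to 19 whose transcription start sites (TSSs) point apart and lie 1000 bp or less from each other, by GENCODE release 21 on mm10. Of 20720 protein-coding genes, 1484 (7.16%) formed 742 such pairs. The set depends on the TSS taken for each gene, here the most upstream one, and with any TSS of a gene there were 942 pairs and 18229 single promoters. Merging the peaks of all 36 libraries at 1 bp of overlap gave 105005 accessible regions, and 728 of them overlapped the span between both TSSs of a pair. A region was found at 707 of the 742 pairs, with 1 region at 686 and 2 regions at 21, and no region belonged to more than 1 pair. They were compared with 18336 single promoters, each of a gene in no pair and with no other protein-coding TSS within 1000 bp, of which 10118 held a region (10207 regions in all).

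Open chromatin was mapped in 8 fractions of hematopoietic stem and progenitor cells sorted from bone marrow of C57BL/6 mice. The assay was ATAC-seq, which reads where a transposase cuts into accessible DNA. Young mice were 10 weeks old and Aged mice 20 months old, and no other allele or treatment was used in any group. The study's methods give the mice as female, and a figure legend of the study says that marrow was pooled before sorting. Libraries of 1 age may thus share animals, and p-values measure the spread between these libraries. Hematopoietic stem cells (HSCs; the CD34- and Flt3- cells that are CD150+ and CD48- among Lin- cells positive for Sca-1 and c-kit) had 4 libraries per age. Each of the other fractions had 2 per age, namely multipotent progenitors MPP1 (CD34+ CD150+ CD48-), MPP2 (CD150+ CD48+), MPP3 (CD150- CD48+ Flt3-) and MPP4 (Flt3+), granulocyte-macrophage progenitors (GMPs; Sca-1- c-kit+ FcgR+ CD34+), megakaryocyte-erythrocyte progenitors (MEPs; Sca-1- c-kit+ FcgR- CD34-) and common lymphoid progenitors (CLPs; IL-7 receptor positive, low in Sca-1 and c-kit). Each library came from 20000 cells.

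Divergent gene pairs are a common arrangement in mammalian genomes. Both TSSs usually share a nucleosome-depleted stretch that is rich in CpG dinucleotides and lacks a TATA box, and the pre-initiation complexes at its edges transcribe in opposite directions. Many such pairs hold housekeeping genes, among them genes for DNA repair, mitochondrial proteins and histones, and in blood progenitors these are needed in every lineage.

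The spans of 10 pairs are printed because the results below turn on them. Each is the plus strand of mm10 (bases from the RefSeq copy of GRCm38), 5′ to 3′, from the TSS of the minus-strand gene, named first, to the TSS of the plus-strand gene, so the bases between both ends lie in none of the basic protein-coding transcripts of either gene. Capitals mark letters searched on both strands: GGGCGG (the GC box of Sp1 and Klf factors), CCGGAAG (ETS factors), CCAATCA (the CCAAT box of NF-Y) and TATAAA (the TATA box). A match is a description of the letters and not evidence of binding. The first 4 were called in 35 or 36 libraries.
Hspd1/Hspe1 (chr1:55088024-55088132): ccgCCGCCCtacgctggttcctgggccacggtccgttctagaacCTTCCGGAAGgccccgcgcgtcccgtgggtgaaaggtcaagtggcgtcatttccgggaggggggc
Mrps12/Sars2 (chr7:28741820-28742002): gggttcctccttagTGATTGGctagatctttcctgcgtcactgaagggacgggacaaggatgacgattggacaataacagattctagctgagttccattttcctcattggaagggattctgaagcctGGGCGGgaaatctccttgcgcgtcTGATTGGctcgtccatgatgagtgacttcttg
Ormdl2/Sarnp (chr10:128821645-128821894): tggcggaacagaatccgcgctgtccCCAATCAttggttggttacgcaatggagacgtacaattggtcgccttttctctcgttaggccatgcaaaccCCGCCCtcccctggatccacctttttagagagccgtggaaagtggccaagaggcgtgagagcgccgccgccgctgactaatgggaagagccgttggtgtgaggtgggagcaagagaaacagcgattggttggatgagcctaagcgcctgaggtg
Hist1h2ae/Hist1h2bg (chr13:23571220-23571396): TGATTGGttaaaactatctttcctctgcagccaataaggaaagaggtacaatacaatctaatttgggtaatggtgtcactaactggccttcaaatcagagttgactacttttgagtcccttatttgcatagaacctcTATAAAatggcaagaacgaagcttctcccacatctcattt
The next pair of spans was called in all 32 libraries outside MEPs and in no MEP library.
Rps18/Vps52 (chr17:33955677-33955812): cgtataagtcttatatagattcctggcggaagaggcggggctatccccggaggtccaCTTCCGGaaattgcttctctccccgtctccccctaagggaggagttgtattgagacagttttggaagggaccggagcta
Tsc2/Nthl1 (chr17:24632630-24632682): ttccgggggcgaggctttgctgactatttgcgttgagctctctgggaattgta
These 2 spans were called in all 4 MEP libraries but not in all others.
Tcf19/Cchcr1 (chr17:35516824-35517100): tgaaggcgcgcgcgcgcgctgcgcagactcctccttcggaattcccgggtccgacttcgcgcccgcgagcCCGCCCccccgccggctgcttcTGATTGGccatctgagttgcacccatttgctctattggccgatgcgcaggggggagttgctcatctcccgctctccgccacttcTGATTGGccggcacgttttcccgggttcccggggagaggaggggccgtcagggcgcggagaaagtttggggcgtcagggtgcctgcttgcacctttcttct
Drap1/AI837181 (chr19:5424979-5425144): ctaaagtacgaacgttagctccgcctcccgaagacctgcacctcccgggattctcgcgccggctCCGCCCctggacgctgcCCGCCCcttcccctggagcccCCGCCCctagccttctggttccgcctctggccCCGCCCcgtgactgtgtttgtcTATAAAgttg
The last 2 were among the spans called most unevenly in GMPs and HSCs.
Tbc1d16/Ccdc40 (chr11:119228499-119228572): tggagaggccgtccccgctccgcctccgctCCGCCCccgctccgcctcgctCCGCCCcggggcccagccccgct
Ifit1bl2/Ifit1 (chr19:34640743-34640871): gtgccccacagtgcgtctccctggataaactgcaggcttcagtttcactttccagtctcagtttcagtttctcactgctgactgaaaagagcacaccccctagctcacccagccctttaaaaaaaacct
The CCAATCA letters occurred once or more in the spans of Mrps12/Sars2, Ormdl2/Sarnp, Hist1h2ae/Hist1h2bg and Tcf19/Cchcr1 and in none of the other 6. The span of Tsc2/Nthl1 held none of the letters searched within its 53 bases.

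The TSSs of a pair were close. Their spacing had a median of 141.5 bp (quartiles 75 and 276 bp, range 1 to 996 bp), with 388 pairs at 1 to 150 bp, 188 at over 150 to 300 bp and 166 at over 300 to 1000 bp. The DNA around them was rich in CpG. In 300 bp centred on the span, the observed over expected CpG ratio had a median of 0.857 for pairs and 0.476 for single promoters (300 bp centred on a window upstream of the TSS, of the length of a span), and it was above 0.6 in 85.4% and 41.2%. The GC content had medians of 62.0% and 54.7%. In the same 300 bp the GC box letters GGGCGG occurred at 66.3% of pairs, at 40.4% of single promoters, and at 68.0% of single promoters when these were weighted to the CpG ratios of the pairs. The GC box was thus no more frequent at pairs than at single promoters of like CpG content. Other letters remained more frequent at pairs beside that weighted share. The ETS letters CCGGAAG were at 28.2% of pairs against 15.5% of weighted single promoters, and CCAATCA was at 15.1% against 8.59%. The longer YY1 letters AAGATGGCG were at 5.39% against 2.86%, the NRF1 letters GCGCATGC at 7.01% against 5.44%, the CRE letters TGACGTCA at 5.12% against 3.44% and the ZBTB33 letters TCTCGCGAG at 2.83% against 1.47%. Letters of lineage factors were rare, with the GATA factor letters AGATAAG at 1.08% against 1.36% and the letters of RUNX factors, TGTGGTT, at 2.83% against 2.82%. The TATA box letters TATAAA were at 5.12% of pairs, 13.3% of all single promoters and 6.73% of the weighted ones. These shares are descriptions without a test.

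The libraries differed in the number of peaks, which the study called after subsampling the reads of each library to the same number. That number is not given in the sources used here, so the depth behind a value is unknown. Peaks numbered 27087 to 40157 in the HSC, MPP and CLP libraries, 52576 to 63288 in the 4 GMP libraries and 9581 to 11041 in the 4 MEP libraries. Peaks of GMPs were also narrower, with median widths of 232 to 246 bp against 291 to 360 bp in the others. The labelled cell types were checked at promoters of defining genes. Mpo, Elane and Cebpe were called in all 4 GMP libraries and in at most 1 other, and Rag1 in 2 CLP libraries and no other. Car1 was called in 2 of 4 MEP libraries and no other, but Klf1 and Epor, which define erythroid cells, were called in none, as were Prtn3, Dntt and Mecom. Of the other markers of the sorted cells, those of HSCs were not particular to them. Hlf and Meis1 were called in all HSC, MPP and GMP libraries and in 4 and 3 of the CLP libraries, and Hlf in 1 MEP library. Procr was called in 4 of 8 HSC, 2 of 4 MPP3 and 3 of 4 GMP libraries, and Fgd5 in 1 MPP1 library and no other. Il7r was called in all MPP4, GMP and CLP libraries, and Ebf1 in 1 or more libraries of every fraction. Promoters of T cell, B cell and red cell markers (Cd3e, Cd3g, Cd79a, Hbb-bs and Hba-a1) were called in no library, while S100a8, a neutrophil gene, was called in all 4 GMP libraries and in 3 others, and Ltf in 1 or 2 libraries each of MPP1, MPP3, MPP4 and GMPs.

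The first comparison asked whether pairs are open more often than single promoters in each fraction. A promoter was counted as called in a library when a region overlapping its window held a peak of that library. In HSCs 88.0% ± 1.96 of pairs (SD, n = 8 libraries) and 43.5% ± 1.78 of single promoters were called. The MPP fractions had 89.9% ± 0.722 (MPP1), 90.0% ± 1.62 (MPP2), 91.9% ± 1.05 (MPP3) and 89.6% ± 2.12 (MPP4) of pairs, and CLPs had 89.3% ± 1.34 (n = 4 each), against 41.8% to 45.4% of single promoters in these fractions. GMPs had the highest share of pairs, at 93.7% ± 0.419 against 48.02% ± 1.20 of single promoters. MEPs had the lowest, at 73.6% ± 2.83 against 27.3% ± 1.19, and the MEP libraries stood at 70.8% and 73.5% (Young) and at 72.8% and 77.5% (Aged). The 32 libraries of other fractions lay between 85.2% and 94.2%, without overlap with MEPs. Pairs exceeded single promoters in 36 of 36 libraries, by 45.6 percentage points on average (two-sided sign permutation test, p = 1e-05, the smallest that 100000 resamples can give). Within a fraction of 4 libraries the exact sign test cannot go below p = 0.125, and within HSCs the exact p was 0.00781, the smallest possible for 8 libraries.

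**Figure D1:**
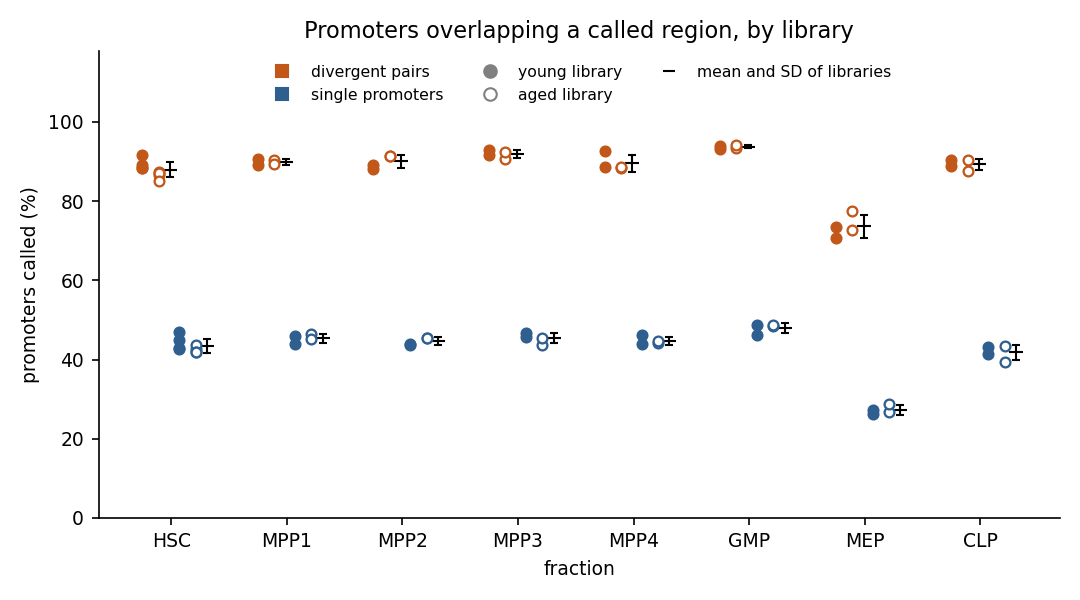
Share of promoters called (percent, vertical axis) in each library, by fraction; filled circles are Young libraries, open circles Aged libraries, and the dash with its bar is the mean and SD. Divergent pairs lie between 85.2% and 94.2% outside MEPs and between 70.8% and 77.5% in MEPs, above single promoters in every library.

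Much of this difference went with CpG content and with promoters that were open in no library. When single promoters were weighted to the CpG ratios of the pairs, the difference fell to 19.1 points. Among promoters with a region in at least 1 library it was 15.3 points, and with both conditions 9.44 points, each with p = 1e-05 in the sign permutation test. It was positive in 36 of 36 libraries within each of 4 classes cut at the quartiles of the CpG ratio of pairs. In the lowest class (ratio up to 0.712) 74.6% ± 5.82 of 186 pairs were called against 26.7% ± 4.68 of 12471 single promoters. In the second class the shares were 91.7% and 73.4%, in the third 94.4% and 78.4%, and in the highest 92.3% and 80.2%. Pairs with TSSs over 500 to 1000 bp apart (84 pairs) were called at 81.5% ± 6.24 (SD, n = 36 libraries), and pairs just outside the limit at over 1000 to 1500 bp (50 pairs) at 80.4% ± 9.23.

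Most pairs were open in every library. Of the 742 pairs, 447 (60.2%) were called in all 36 libraries, 150 (20.2%) in 32 to 35, 92 in 12 to 31 and 18 in 1 to 11, and 35 (4.72%) held no region. Of single promoters 19.5% were called in all 36 and 44.8% held no region. Several textbook pairs were called in every library, and their share was not tested against the 60.2% of all pairs. Of 28 listed, 8 met the rule on spacing, and 6 of these were called in all 36 libraries: Hspd1/Hspe1 (the mitochondrial chaperonins Hsp60 and Hsp10), Atm/Npat (a DNA damage kinase and a coactivator of histone genes), Mcm4/Prkdc (a subunit of the replicative helicase and the catalytic subunit of DNA-PK), Brca1/Nbr1 (a repair protein and an autophagy receptor), Gart/Son (an enzyme of purine synthesis and a splicing cofactor) and Ncapd2/Mrpl51 (a condensin subunit and a mitochondrial ribosomal protein). Mrps12/Sars2, a mitochondrial ribosomal protein and the mitochondrial seryl-tRNA synthetase, was called in 35 libraries and missed in 1 MEP library. Rad51c/Tex14, a gene of homologous recombination beside a germ cell gene, was called in none, and the nearest region lay 185 bp from its span.

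The height of a peak is given as fold enrichment over the local background, a ratio. At Hspd1/Hspe1 the fold enrichment was 23.7 and 21.6 in Young and 23.8 and 20.3 in Aged GMPs, and 7.197 and 6.10 in Young and 7.99 and 7.91 in Aged MEPs. The 8 HSC libraries had a lowest value of 8.60, a median of 9.73 and a highest of 12.3. GMPs were above all other libraries at this pair and MEPs below them, but peaks as a whole were higher in GMPs and lower in MEPs. The median over the 5167 regions called in all 36 libraries was 18.5 to 20.3 in GMPs, 11.6 to 13.8 in HSCs and 7.53 to 7.78 in MEPs. Relative to that median, on the log2 scale (a view added after seeing the data), Hspd1/Hspe1 had 0.09 to 0.36 in GMPs and -0.65 to 0.17 in the others, with HSCs at -0.65 to -0.12 and MEPs at -0.30 to 0.06. On that scale GMPs stayed above HSCs and MEPs but overlapped other libraries, and MEPs were no longer below the rest. At Mrps12/Sars2 GMPs had 30.3 ± 1.90 (SD, n = 4), and the 3 MEP libraries that called it had 6.62, 5.65 and 5.98. HSCs ranged from 12.5 to 19.9 there, without overlap with either. Relative to the library median GMPs (0.58 to 0.70) and HSCs (-0.0088 to 0.61) overlapped, while the 3 MEP libraries (-0.44 to -0.19) stayed below all others. Mcm4/Prkdc had 25.99 to 28.4 in GMPs, 7.99 to 11.9 in MEPs and 17.1 to 22.9 in HSCs. Brca1/Nbr1 had 18.4 to 20.4 in GMPs, 7.90 to 8.94 in MEPs and 10.0 to 15.6 in HSCs. Relative to the library median, GMPs, MEPs and HSCs overlapped one another at both of these pairs. The highest values belonged to Ormdl2/Sarnp, with a mean of 24.96 over libraries (a regulator of sphingolipid synthesis and a protein of mRNA export). It reached 31.8 ± 1.60 in GMPs, 21.8 to 30.3 in HSCs and 13.5 ± 2.14 in MEPs. Relative to the library median it was 0.60 to 0.83 in GMPs, 0.80 to 1.28 in HSCs and 0.52 to 1.06 in MEPs on the log2 scale, so the raw order of GMPs over HSCs did not hold. Gm28635/Med19 (a Mediator subunit), Miip/Fv1 (a retroviral restriction factor), Wbp11/BC049715 (a splicing protein) and Rpgrip1l/Fto (a ciliary protein and an RNA demethylase) followed at 22.6 to 24.0. The 5 lowest means among pairs called in all libraries were histone pairs on chromosome 13, from 5.86 at Hist1h2ae/Hist1h2bg to 7.47 at Hist1h2bl/Hist1h2ai. Histone genes have near-identical copies, so reads can be lost or split between them and these values are uncertain.

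Pairs without a region included, as the first 8 in genome order, Nmur1/Tex44, Ngef/Neu2, 9430097D07Rik/Pip5kl1, Patl2/Terb2, Trim46/Krtcap2, Cd160/Pdzk1, Tssk3/Fam229a and Slc30a3/Dnajc5g. Genes used in most cells were among the 35 as well. Ndufa5, a subunit of respiratory complex I, and Xrcc1, a DNA repair protein, both picked after their values were seen, had a region 62 and 407 bp from the span of their pairs (Ndufa5/Asb15 and Pinlyp/Xrcc1). The CpG ratio of the 35 pairs had a median of 0.340. Of the 35 such pairs, 7 had a region within 500 bp of the span and 11 within 1000 bp, and the median distance to the nearest region was 2519 bp.

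The position of the summit was compared between classes of TSS spacing. A longer span holds a summit, and a wide peak covers close TSSs, more often by geometry alone, and the classes were not compared with a fixed peak shape, so the shares are descriptions. The strongest summit lay between both TSSs at 54.1% ± 4.03 of called pairs (SD, n = 36 libraries), beyond the minus-strand TSS at 23.9% ± 2.07 and beyond the plus-strand TSS at 22.02% ± 2.28. With TSSs 1 to 150 bp apart it lay between them at 36.6% ± 6.06, with over 150 to 300 bp at 76.2% ± 3.78 and with over 300 to 1000 bp at 69.7% ± 3.35. A single peak covered both TSSs at 87.2%, 78.7% and 34.04% of called pairs in these classes. At single promoters 42.6% ± 2.92 of summits lay downstream of the TSS and 38.2% ± 3.14 in the upstream window. Peaks at pairs were wider than at single promoters in 36 of 36 libraries, with means of the median widths of 520 ± 42.2 bp and 445 ± 35.9 bp, and 30.2% against 23.1% held more than 1 summit. By the median over libraries, 409 pairs had the summit in the span, 155 on the side of the minus-strand gene and 143 on that of the plus-strand gene.

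**Figure D2:**
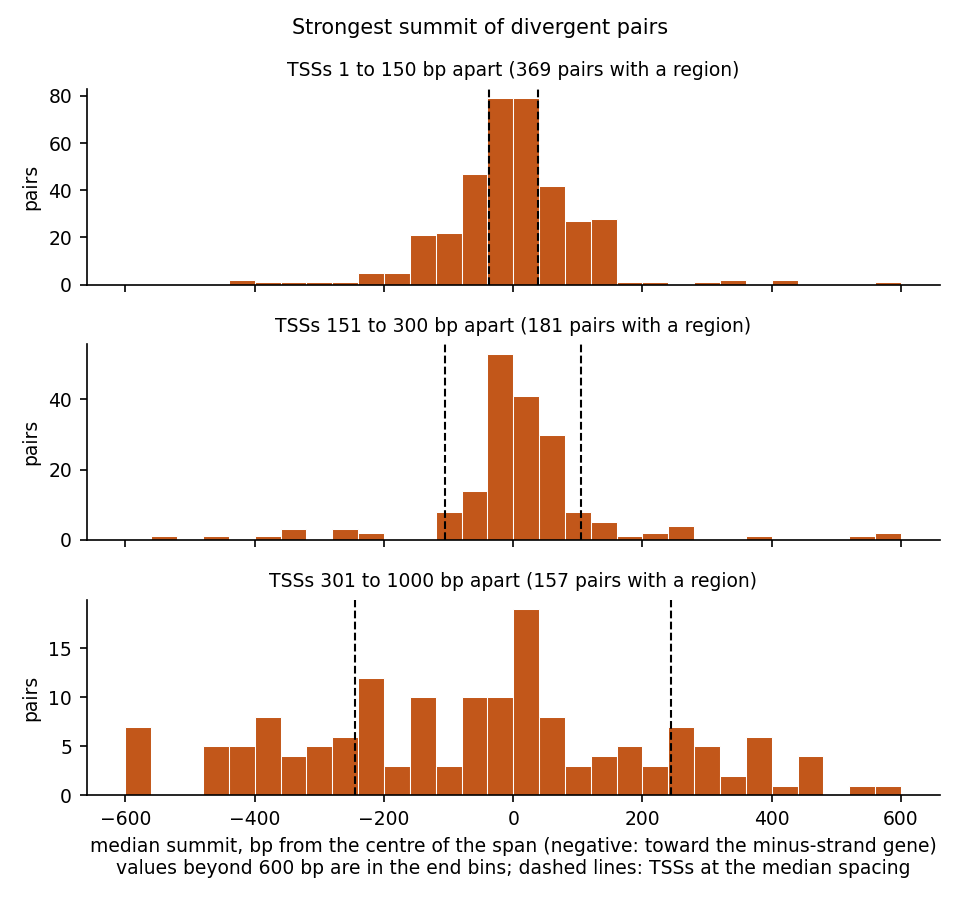
Number of pairs (vertical axis) by the position of the median strongest summit relative to the centre of the span (bp, horizontal axis; negative toward the minus-strand gene), in 3 classes of TSS spacing; dashed lines mark the TSSs at the median spacing of the class. Summits gather at the centre in the first 2 classes, and spread over and beyond the span in the 157 pairs with TSSs over 300 to 1000 bp apart.

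Called pairs also had higher peaks than called single promoters. The median fold enrichment of pairs was 11.4 ± 0.524 in HSCs (SD, n = 8), 18.9 ± 0.545 in GMPs, 7.46 ± 0.0831 in MEPs and 12.2 ± 0.928 in CLPs (n = 4 each), and 11.6 to 12.7 in the MPP fractions. Single promoters had 9.89 ± 0.390, 14.8 ± 0.499, 7.09 ± 0.0584 and 10.3 ± 0.458 in the first 4. The ratio of both medians was above 1 in 36 of 36 libraries and ranged from 1.04 to 1.29, with a mean log2 ratio of 0.23 (two-sided sign permutation test, p = 1e-05, the smallest possible). Only called promoters have a value, so low values are cut off by the calling limit. Among promoters called in all 36 libraries the log2 ratio was 0.06, and with the same number of strongest peaks in every library it was 0.05, each with p = 1e-05 in the sign permutation test.

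**Figure D3:**
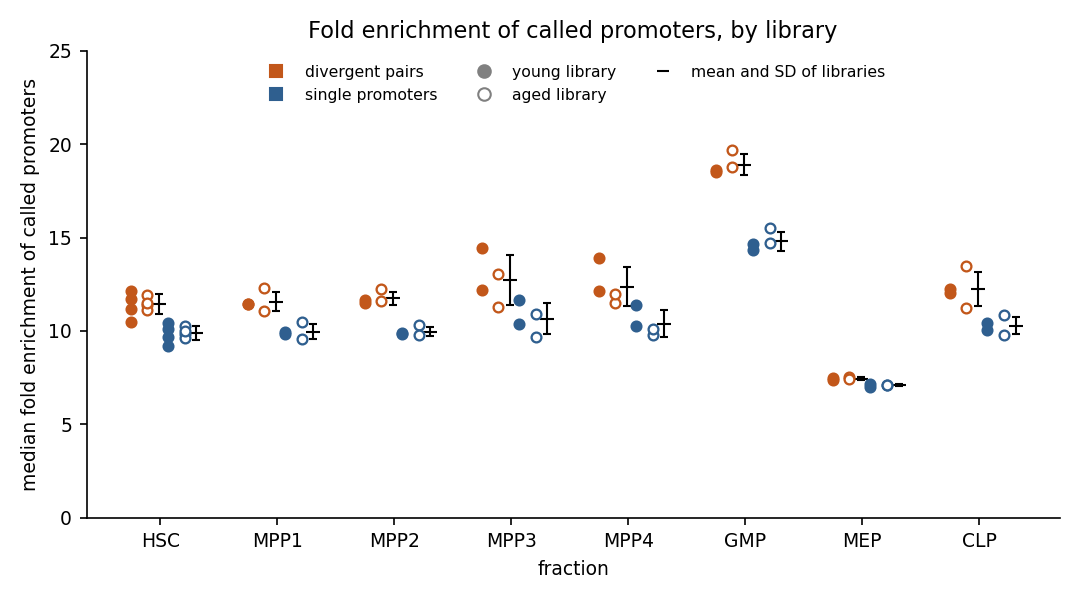
Median fold enrichment of called promoters (ratio over local background, vertical axis) in each library, by fraction; filled circles are Young libraries, open circles Aged libraries, and the dash with its bar is the mean and SD. Pairs average 18.9 in GMPs and 7.46 in MEPs, where they lie closest to the single promoters.

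The ratio of pairs over single promoters differed between fractions. It was 1.28 in GMPs, 1.05 in MEPs and 1.16 to 1.19 in the other 6. On the log2 scale MEPs were lower than the other libraries by 0.17 (exact permutation test of which 4 of 36 libraries are MEP, two-sided, p = 1.7e-05, the smallest possible; adjusted over 8 fractions p = 0.000136) and GMPs higher by 0.14 (exact permutation test, adjusted p = 0.000815). Neither difference held at equal peak numbers. With the same number of peaks in every library the MEP difference was 0.01 (p = 0.245) and the GMP difference 0.003 (p = 0.761, both by exact permutation test). Among promoters called in all 36 libraries, however, the log2 ratio stayed highest in GMPs, at 0.15 against 0.03 to 0.07 in the other fractions. The MEP difference there was -0.03 (exact permutation p = 0.124). The number of peaks moved with both fractions. Peak width moved as well. Over all peaks GMPs had the narrowest, while at the promoters compared MEPs did, with medians of 420 to 449 bp at pairs against 465 to 584 bp in the other 32 libraries, and of 362 to 391 bp at single promoters against 392 to 504 bp. The part of width in the result was not tested.

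Whether the advantage of pairs over single promoters was larger or smaller in MEPs depended on the scale and on the peaks counted. The share of pairs was 2.70-fold that of single promoters in MEPs, against 1.95-fold to 2.13-fold in the other fractions. Regions at pairs made up 5.45% to 5.72% of all regions called in MEP libraries, 1.16% to 1.38% in GMP libraries and 1.76% to 2.59% in the others. On the log2 odds of being called, the advantage of pairs was lower in MEPs, by -0.63 (exact permutation p = 3.4e-05). In percentage points, the excess of pairs was 46.4 ± 1.66 in MEPs and differed from the other libraries by 0.906 (exact permutation test, p = 0.200, n = 4 and 32). It was 9.16 points larger in MEPs when every library was reduced to the same number of peaks, and 10.0 points smaller when peaks needed a -log10 q of at least 10 (exact permutation p = 6.8e-05 and 1.7e-05). The direction of this comparison thus changed with the scale and with the peaks that were counted.

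By TSS spacing, 70.4% of pairs at 1 to 150 bp, 80.7% at over 150 to 300 bp and 73.2% at over 300 to 1000 bp were called in MEPs. Promoters called in all 32 libraries outside MEPs give a matched view. Of 558 such pairs, 447 (80.1%) were also called in all 4 MEP libraries and 15 (2.69%) in none. Of 5619 such single promoters, 3570 (63.5%) were called in all 4 and 509 (9.06%) in none. The strength of the peak elsewhere went with this share. In 4 classes of equal size by the mean fold enrichment of pairs outside MEPs (from 5.96, 10.98, 13.4 and 16.2), 49.3%, 84.2%, 89.9% and 97.1% of pairs were kept in all 4 MEP libraries, and 37.0%, 65.3%, 82.5% and 93.4% of single promoters. Pairs were above single promoters in each class, which is given as a description without a test, since MEP calls and strength share the peak caller.

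**Figure D4:**
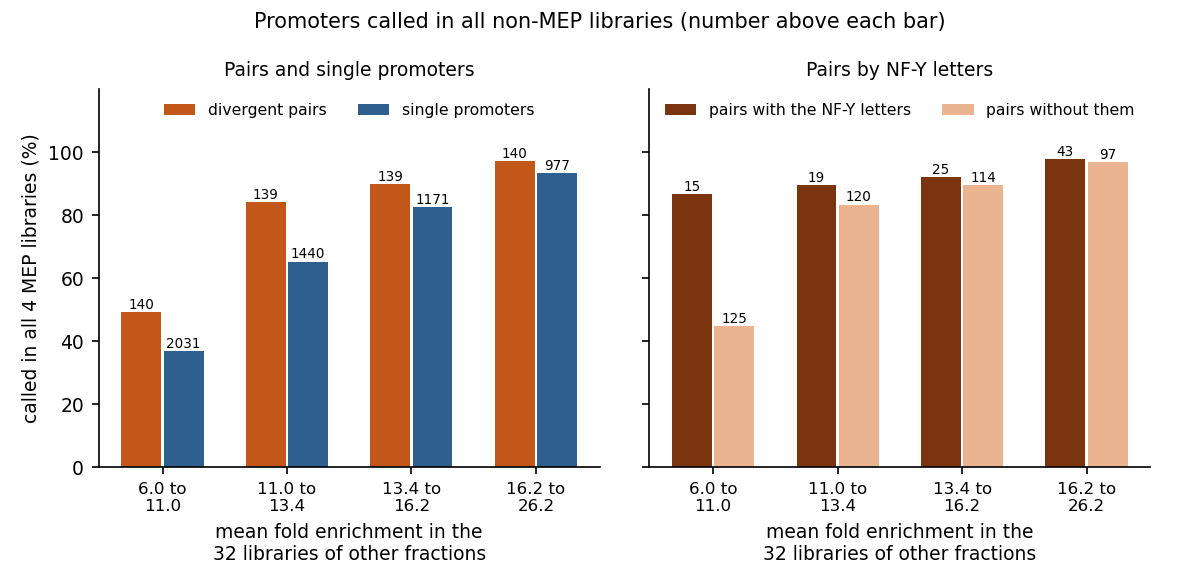
Share of promoters called in all 4 MEP libraries (percent, vertical axis) among those called in all 32 other libraries, by mean fold enrichment outside MEPs (horizontal axis); left, divergent pairs and single promoters; right, pairs with and without the CCAAT box letters of NF-Y; numbers above bars are promoters. The share rises from 49.3% to 97.1% of pairs with strength, and pairs with the letters reach 86.7% in the weakest class.

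The letters of NF-Y, a factor that binds CCAAT boxes, were compared with the calls in MEPs. They lay in the 300 bp around the centre of 112 pairs, in 21.3% of pairs called in all 36 libraries and in 1 of the 66 pairs called less often in MEPs (1.52%). In MEPs 91.3% of pairs with the letters and 70.5% of pairs without them were called. Pairs with the letters were called more often in every library of every fraction, with means over all 36 libraries of 94.7% and 87.1%. In the 4 MEP libraries separately the share with the letters was 89.3% to 93.8%. Among the 558 pairs called in all other libraries, 93.1% (95 of 102) with the letters and 77.2% (352 of 456) without them were called in all 4 MEP libraries. Pairs with the letters also had higher peaks elsewhere, with a median fold enrichment outside MEPs of 15.02 against 13.1. In the weakest class the shares were 86.7% (13 of 15) and 44.8% (56 of 125), at medians outside MEPs of 8.80 and 9.48. In the next classes they were 89.5% (17 of 19) and 83.3% (100 of 120), 92.0% (23 of 25) and 89.5% (102 of 114), and 97.7% (42 of 43) and 96.9% (94 of 97). The gap was thus wide in the weakest class, which held 15 pairs with the letters, and narrow in the others. Of those 15 pairs 7 were histone pairs, whose fold enrichment is uncertain, and 6 of the other 8 were called in all MEP libraries, against 54 of 123 other pairs that were not histone pairs and lacked the letters (43.9%). Single promoters showed 74.7% with the letters and 62.0% without them, also with higher peaks elsewhere (14.1 and 12.1). By class they had 44.2% and 36.4%, 63.5% and 65.5%, 84.6% and 82.1%, and 97.5% and 92.4%, so the second class went the other way. The letters were picked from the 10 searched after their values were seen, so these values carry no test. Of pairs with the TATA box letters 55.9% were called in MEPs, and 74.6% of the others. Among those of the 558 pairs their peaks elsewhere were lower (10.3 against 13.6), and in the weakest class the order was reversed, at 61.5% (8 of 13) called in all MEP libraries with the letters and 48.03% (61 of 127) without them. The ETS letters were in 25.8% of the pairs called less often in MEPs and in 30.9% of those called in all libraries.

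A test of every region of the catalogue asked which regions were called less often in MEPs. At an adjusted p under 0.05 (Fisher's exact test, Benjamini-Hochberg over 96894 regions), 66 regions at pairs were called less often in MEPs than in the other libraries. Of the 728 regions at pairs, 449 were called in every library and could not be tested. The 66 were 23.7% of the 279 that were tested, against 29.3% of the 6640 tested at single promoters and 11.2% of all regions tested. Counting also the regions called in every library, they were 9.07% of 728, against 19% of the 10207 at single promoters. The share at pairs was thus below that at single promoters on either count, and among tested regions above that of the whole catalogue. A region called in few of the other libraries cannot pass as called less often in MEPs. The share of the whole catalogue thus depends on how many regions could pass, which was not counted. None of the regions at pairs was called more often in MEPs (0.748% of all regions tested; 0 at an unadjusted p under 0.05). A region called in most of the other libraries cannot pass in that direction. The 66 were called in 0 (42 regions) or 1 (24 regions) of the 4 MEP libraries. Without 1 MEP library the count fell to 32 (Young 1), 33 (Young 2), 34 (Aged 1) or 41 (Aged 2), where the smallest possible p is larger with 3 libraries. With the same number of peaks in every library 1 region at a pair was called less often in MEPs and 27 more often. With peaks of a -log10 q of at least 10 the count called less often was 131. The share of all regions in these settings is not given here, so these counts describe the pairs alone. Outside MEPs the peaks of the 66 were weak, with a median fold enrichment of 8.65 against 14.2 for pairs called everywhere. The median spacing of their TSSs was 105.5 bp.

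The 8 pairs named from those absent in MEPs were each called in 32 of 32 other libraries and 0 of 4 MEP libraries (Fisher's exact test, adjusted p = 0.000487 over all regions). At Rps18/Vps52, a ribosomal protein gene beside a gene of Golgi transport, the fold enrichment was 23.2 and 24.8 in Young and 21.3 and 22.9 in Aged GMPs. HSCs had a lowest value of 6.02, a median of 7.57 and a highest of 8.30 there. Relative to the library median GMPs had 0.07 to 0.38 on the log2 scale and HSCs -1.02 to -0.58, so GMPs did not overlap HSCs on either scale. Tsc2/Nthl1, an inhibitor of mTORC1 signalling and a DNA glycosylase, had 21.4, 22.2, 20.0 and 21.8 in GMPs and 5.91 to 11.2 in HSCs (relative log2 values of -0.02 to 0.22 and -1.09 to -0.23). Qrsl1/Rtn4ip1, 2 mitochondrial genes, had 18.96, 22.1, 26.02 and 20.5 in GMPs. Cyb561d2/Nprl2, whose second gene encodes a subunit of GATOR1, had 6.25 to 11.8 in GMPs and 6.87 to 11.7 in HSCs, and the 2 fractions overlapped. Relative to the library median they also overlapped, at -1.70 to -0.69 in GMPs and -0.86 to -0.16 in HSCs. The mean was lower in GMPs on that scale, at -1.25 against -0.47. Smpd2/Ppil6 (a sphingomyelinase), Ppcs/Zmynd12 (an enzyme of coenzyme A synthesis), Ppp1r3d/Fam217b (a subunit of protein phosphatase 1) and Cpeb3/March5 (a regulator of translation and a mitochondrial ubiquitin ligase) had medians of 8.68 to 11.1 outside MEPs.

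At the other end, Tcf19/Cchcr1, Drap1/AI837181, 1110059G10Rik/Kif15 and Rad9b/Vps29 were called in all 4 MEP libraries and missed in 1 to 5 of the others. Drap1 encodes a partner of a general transcriptional repressor, Kif15 a mitotic kinesin, Rad9b a clamp protein of the DNA damage checkpoint and Vps29 a retromer subunit. At Rad9b/Vps29 the fold enrichment was 8.13 and 8.88 in Young and 7.10 and 7.27 in Aged MEPs, and 27.1, 31.3, 30.4 and 33.8 in GMPs. The HSC libraries that called it had 4.81 to 11.3, with a median of 8.65. The MEP values thus lay within those of HSCs, but relative to the library median they were narrowly above them, at -0.11 to 0.24 against -1.47 to -0.12 on the log2 scale. The HSC values came from the 7 libraries with a call. Weak peaks near the calling limit lie closer to the low library median of MEPs on that scale, and the part of this was not tested. At Tcf19/Cchcr1 MEPs had 6.19, 6.09, 7.67 and 6.43, and HSCs 4.19 to 8.34, with relative log2 values of -0.31 to 0.0026 and -1.65 to -0.60. None of these pairs could pass the test of being called more often in MEPs, since they were missed in only 1 to 5 of the other libraries.

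**Figure D5:**
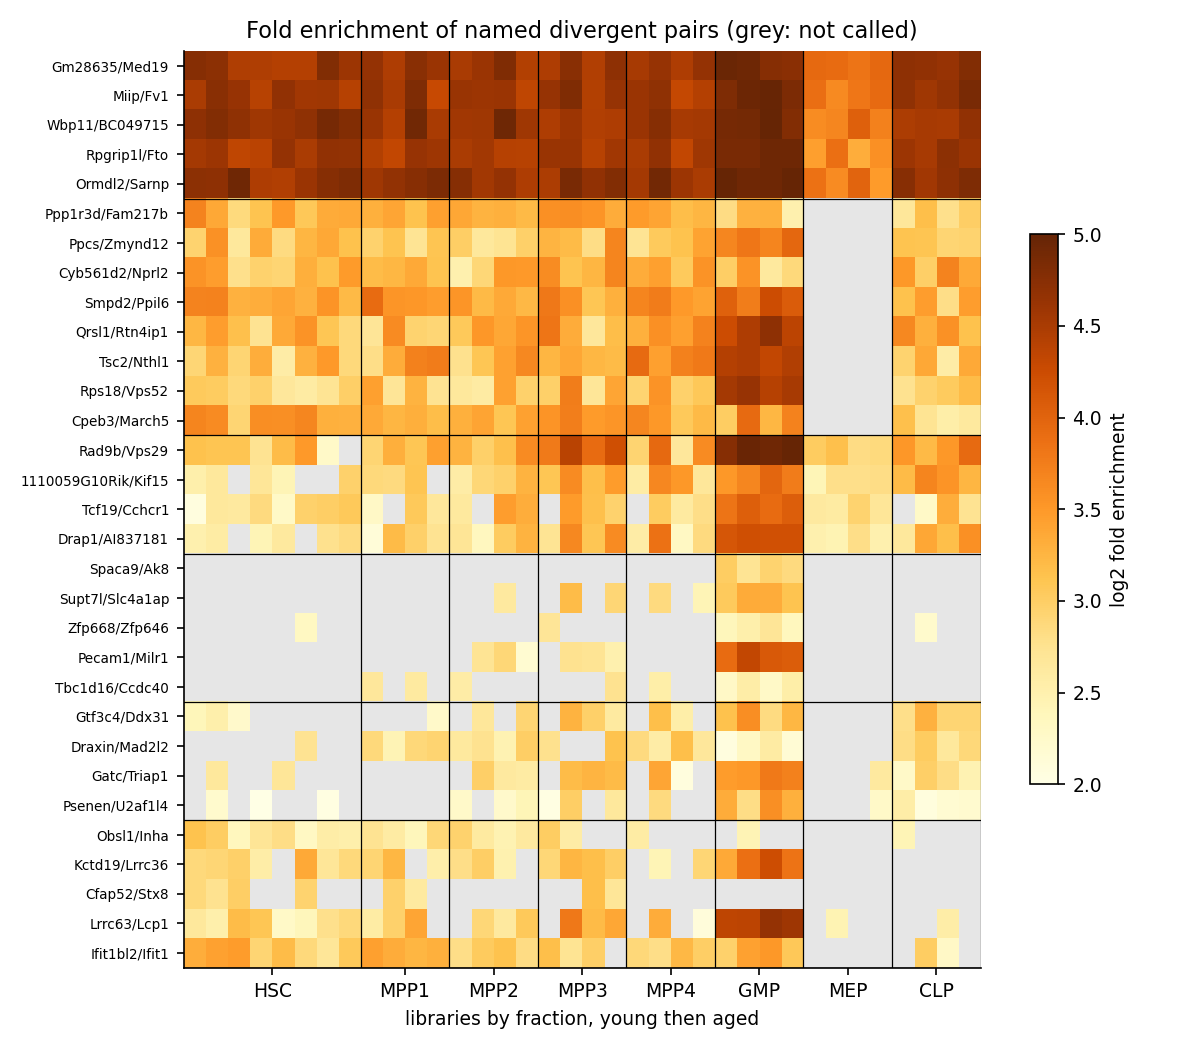
Log2 fold enrichment (colour scale) of named pairs (vertical axis) in the 36 libraries (horizontal axis, by fraction, Young then Aged within each); grey marks a library without a call. From top to bottom the blocks hold the highest pairs, the 8 pairs absent from MEPs, and pairs among those with the largest share of MEP, GMP, CLP and HSC libraries.

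For pairs that were called everywhere, the height of the peak in MEPs was compared with the other fractions by limma on log2 fold enrichment, centred on each library's median over the 5167 regions called in all 36 libraries. Relative to that median, 84 of 449 regions at pairs were lower in MEPs (18.7%; 16.7% of all regions and 17.2% at single promoters) and 94 were higher (20.9%; 25.1% and 22.3%), at an adjusted p under 0.05. The share at pairs was near the background in both directions. With peaks of a -log10 q of at least 10 the counts at pairs were 37 lower and 49 higher, given without the share of all regions. Without centring, the median of all regions was -0.82 on the log2 scale in MEPs. By that measure 444 of the 449 were lower (98.9%, beside 96.5% of all regions and 98.1% at single promoters). The changes given here are relative to that shift. Of 12 histone pairs called in all libraries, 8 were relatively higher in MEPs, by 0.32 to 0.65 on the log2 scale, and none was lower. The other 4 did not pass (-0.16 to 0.22), and the 5 named above, chosen for their low peaks, were among the 8 (limma, largest adjusted p = 0.0208). Without centring, called histone pairs stood lower in MEPs, at a fold enrichment of 6.15 against 8.47 in the others. Only regions called in every MEP library enter this test, and the MEP library medians were low (7.53 to 7.78). A weak region can thus lie less far below the median in MEPs. The part of this in the result was not tested. Of the textbook pairs called in all libraries, Gart/Son (0.34 ± 0.11 SE, limma adjusted p = 0.0135) and Ncapd2/Mrpl51 (0.29 ± 0.09, limma adjusted p = 0.0112) were higher relative to other regions. The others did not pass. Hspd1/Hspe1 differed by -0.005 ± 0.084 (limma adjusted p = 0.973) and Mcm4/Prkdc by -0.15 (limma adjusted p = 0.1325). Atm/Npat differed by 0.16 (limma adjusted p = 0.144) and Brca1/Nbr1 by 0.11 (limma adjusted p = 0.386).

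GMPs called 15 regions at pairs more often than the other libraries did (Fisher's exact test, adjusted p under 0.05). These were 5.38% of the 279 tested, against 8.90% of those tested at single promoters and 29.2% of all regions tested. None was called less often (0.802% of all regions; 0 at an unadjusted p under 0.05). The count was 7 without Young GMP replicate 2, Aged GMP replicate 1 or Aged GMP replicate 2. It was 45 with peaks of a -log10 q of at least 10. With the same number of peaks in every library 24 regions at pairs were called less often in GMPs. The share of all regions in these settings is not given here, so these counts describe the pairs alone. Spaca9/Ak8, with genes of sperm and cilia, was called in the 4 GMP libraries alone (fold enrichment 8.08, 6.60, 7.66 and 7.19; Fisher adjusted p = 0.000181). Pecam1/Milr1, the adhesion molecule CD31 and a receptor of mast cells, had 15.04 and 19.96 in Young and 17.2 and 16.8 in Aged GMPs (Fisher adjusted p = 0.0161). The 6 other libraries that called Pecam1/Milr1 were of MPP2 and MPP3, with 4.55 to 7.42, and did not overlap the GMPs, also relative to the library median (-0.30 to 0.07 in GMPs and -1.45 to -0.87 in those 6, log2). Supt7l/Slc4a1ap, Zfp668/Zfp646 and Tbc1d16/Ccdc40 were called in all 4 GMP libraries and in 3 to 5 others. The 15 pairs had wider spacing, with a median of 232 bp against 141.5 bp for all pairs.

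CLPs and HSCs differed little from the other libraries at pairs. In CLPs the excess of pairs over single promoters was 47.5 ± 0.617 points (n = 4), higher than in the other libraries by 2.15 (exact permutation test, adjusted p = 0.00883). In HSCs it was 44.5 ± 0.826 points (n = 8), lower by 1.35 (permutation test, adjusted p = 0.0334). Both lost the threshold when peaks needed a -log10 q of at least 10 (CLPs 2.82, exact permutation p = 0.177; HSCs -1.88, permutation p = 0.248) and when single promoters were weighted by CpG ratio. No region at a pair passed the test for CLPs, whether called less often (0.335% of all regions; 3 at an unadjusted p under 0.05) or more often (2.06% of all; 0 unadjusted). A region called in most of the other libraries cannot pass as called more often. Among the pairs with the largest share of CLP libraries relative to others were Draxin/Mad2l2, Gatc/Triap1, Gtf3c4/Ddx31 and Psenen/U2af1l4, each called in 4 of 4 CLP and in 15 to 19 of 32 other libraries. For HSCs, Mfap1a/Wdr76 was called less often (3 of 8 against 27 of 28 libraries; Fisher adjusted p = 0.0429; 0.601% of all regions) and 1 of the 2 regions at Foxa3/Sympk (chr7:19023368-19023851) more often (6 of 8 against 2 of 28; Fisher adjusted p = 0.0301; 1.31% of all regions), while its other region was called in all 36 libraries. Those 2 were chosen after their values were seen, and with 1 library left out the counts ranged from 0 to 3 and from 0 to 1. With the same number of peaks in every library 10 regions at pairs were called less often in HSCs and 0 more often, given without the share of all regions.

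Ifit1bl2/Ifit1, with an interferon-induced gene, was among the 5 pairs with the largest relative share of HSC libraries. It was called in 8 of 8 HSC libraries with values of 6.42 to 11.1 and a median of 8.74, in all MPP1, MPP2 and MPP4 libraries and 3 of 4 MPP3 libraries, and in 4 of 4 GMP, 2 of 4 CLP and 0 of 4 MEP libraries (MEPs less often, Fisher adjusted p = 0.00774). Its span held none of the letters searched, and its CpG ratio was 0.210. Lrrc63/Lcp1, the gene of the leukocyte actin-bundling protein L-plastin, was called in 8 of 8 HSC libraries at 4.84 to 9.13 and reached 20.5, 20.6, 25.3 and 24.0 in GMPs. The GMPs did not overlap HSCs at this pair, nor did they relative to the library median (0.11 to 0.33 and -1.38 to -0.44, log2). Obsl1/Inha, Cfap52/Stx8 and Kctd19/Lrrc36 were the others, and none of the 5 passed the test for HSCs.

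Genes were also grouped by what they encode, counting a pair when either gene was in a list. Of 31 pairs with a gene of DNA repair or replication, 21 were called in all 36 libraries and 2 less often in MEPs, and 83.1% ± 5.51 were called in MEPs (SD, n = 4) against 92.5% ± 1.91 in the others (n = 32). Of 32 pairs with a gene of RNA polymerases or splicing, 23 were called in all libraries, with 85.2% and 96.3%. The 48 mitochondrial pairs had 26 in all libraries and 4 called less often in MEPs, with 72.4% ± 8.90 and 93.2% ± 3.78. The 25 pairs with a gene of translation had 11 in all libraries and 3 less often in MEPs, with 72.0% ± 4.62 and 96.5% ± 3.77. Of 29 cell cycle pairs 17 were called in all libraries, of 17 proteasome and ubiquitin pairs 11, of 19 zinc finger pairs 11 and of 14 histone pairs 12. Beside these stand 60.2% in all libraries, 73.6% in MEPs and 90.0% in the others for all 742 pairs, and 66 of 742 called less often in MEPs. The list of blood cell genes had 65 single promoters and no pair, so lineage genes of that list are not represented among the members.

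The last comparison, between ages, addresses whether pairs opened or closed in Aged mice. Over fractions, the share of pairs called changed by -0.0969 points (ages permuted within fractions, two-sided, p = 0.878), and the excess over single promoters by -0.0546 points (permutation p = 0.874). Both values were close to 0. Of the 742 pairs, 482 were called in all libraries or in none and so could not differ by age. Of the other 260, 94 were called in more Aged libraries, 98 in more Young libraries and 68 in equal numbers. No region at a pair passed the stratified exact test in either direction (0% of all 96894 regions; at an unadjusted p under 0.05, 3 regions less often and 0 more often in Aged). By limma none of 449 changed in fold enrichment (0% of all 5167; 7 lower and 21 higher at an unadjusted p under 0.05). Both tests took all fractions together. A region that differed by age in HSCs alone has too few libraries to pass the exact test after adjustment over 96894 regions. In limma such a change is diluted by the other fractions. These counts thus do not address changes within a single fraction. The study's count test on HSC libraries alone did report regions that differed by age, most of them outside promoters.

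Young HSCs had 89.4% ± 1.66 of pairs called and Aged HSCs 86.6% ± 0.999 (SD, n = 4 libraries per age). The Young libraries had 89.1%, 91.8%, 88.3% and 88.3% and the Aged ones 86.5%, 87.5%, 87.1% and 85.2%. The groups did not overlap, and the difference of -2.80 points had an exact permutation p of 0.0286, the smallest possible. Single promoters changed by -1.92 points in the same libraries (exact permutation p = 0.143), and the excess of pairs by -0.880 points (exact permutation p = 0.143). The Young HSC libraries had 35186, 38756, 27856 and 29022 peaks and the Aged ones 31081 to 32185. With the same number of peaks in every library the difference was -1.08 points (exact permutation p = 0.543). It was -1.99 points without Young replicate 2 (exact permutation p = 0.0571) and -2.34 without Aged replicate 4 (exact permutation p = 0.0857). MPP2 had 88.7% ± 0.762 in Young and 91.4% in both Aged libraries (exact permutation p = 0.333, the smallest possible for 2 against 2). The change was 3.03 points in MEPs and 0.270 in GMPs, and -2.29 in MPP4, -0.876 in MPP3, -0.674 in CLPs and -0.135 in MPP1 (exact permutation p of 0.333 to 1 in these). The value of MPP4 was thus close to that of HSCs, from 2 libraries per age.

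Among the pairs with the largest differences in calls between ages, Tcf19/Cchcr1 was called in 18 of 18 Aged and 13 of 18 Young libraries, and Obsl1/Inha in 8 Aged and 13 Young libraries. Col4a4/Col4a3, with 2 genes of basement membrane collagen, was called in 3 Aged libraries and no Young one, at 5.91, 6.13 and 6.86. Txndc9/Eif5b (a translation factor) was called in 15 Aged and 11 Young libraries, and Urod/Hectd3 (an enzyme of heme synthesis) and Entpd5/Bbof1 were the other pairs more frequent in Aged libraries. Zcchc3/6820408C15Rik, Poll/Gm17018 (DNA polymerase lambda), Vmac/Ndufa11 (a subunit of respiratory complex I) and Oxld1/Ccdc137 were less frequent in them. None passed the test (stratified exact test, adjusted p = 1 for each).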

How the data were processed

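ATAC-seq libraries of 8 sorted fractions from Young and Aged mice were analysed from 36 deposited peak lists. The authors aligned reads of 60 bp to mm10 with Bowtie2, subsampled mapped reads to the same number per library, and called peaks per library with MACS2 (version 2.2.6, no model, q limit 0.001). The deposited fold enrichment is a ratio of pileup over local background, and the deposited significance is the -log10 q of each peak. No counts were used here, so the count model of the study (DESeq2) was not run.

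Pairs and single promoters were taken from GENCODE release 21, with the most upstream TSS of the basic protein-coding transcripts of each gene. Of 756 candidates, 14 were dropped because a gene was in a closer pair. The 1358077 entries held 1204561 peaks after entries that differ only in the summit were joined. The value of a promoter in a library was the highest fold enrichment of its peaks. CpG weighting used 10 bins. Shares were tested by sign permutation and by permutation of libraries, calls per region by Fisher's exact test or, for age, an exact test stratified by fraction, with Benjamini-Hochberg adjustment, and log2 fold enrichment by limma (version 3.58.1). The computations used Python 3.11.15, numpy 2.4.6, pandas 2.3.3 and scipy 1.17.1, and were tested on simulated data.

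Named pairs were the textbook pairs that met the rule, the 5 highest and 5 lowest in mean fold enrichment among pairs called in all libraries, up to 8 absent from MEPs or without a region, and 5 for each of the MEP, GMP, CLP, HSC and age rankings. Some pairs and markers that these rules name are not reported here. The members and lists were chosen with earlier results of these data known. Alternatives covered the peak limit, the peak number, the overlap, the spacing, the single promoter window, CpG content, centring, the replicate block and each library left out.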

Additional observations from a re-analysis of the deposited data

Results flagged for a closer look

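Of 80 groups of 4 HSC libraries tested, in 6 the fold enrichment of 1 library lay apart from the other 3 by Dixon's limit of 0.829, where chance gives about 1 in 20. At Mcm4/Prkdc Young HSC replicate 3 had 17.5 beside 21.3 to 21.7, and Aged HSC replicate 2 had 17.1 beside 22.03 to 22.9. At Rad9b/Vps29 Young HSC replicate 4 had 6.72 beside 8.60 to 8.83. At Cpeb3/March5 Young HSC replicate 3 had 7.55 beside 12.2 to 12.8. At Rpgrip1l/Fto Aged HSC replicate 2 had 22.5 beside 25.2 to 25.6. At Tcf19/Cchcr1 Aged HSC replicate 1 had 4.84 beside 7.82 to 8.34.

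Fractions differed from the other libraries in 4 comparisons of pairs with single promoters. The excess in the share called was 2.15 points higher in CLPs (exact permutation test, adjusted p = 0.00883) and differed by -1.35 points in HSCs (permutation test, adjusted p = 0.0334). The log2 ratio of fold enrichment was 0.14 higher in GMPs (exact permutation test, adjusted p = 0.000815) and differed by -0.17 in MEPs (exact permutation test, adjusted p = 0.000136). At equal peak numbers neither log2 difference held, at 0.003 in GMPs (exact permutation p = 0.761) and 0.0106 in MEPs (exact permutation p = 0.245). Among promoters called in all 36 libraries the log2 ratio was still highest in GMPs, at 0.15 against 0.03 to 0.07 in the other fractions. The CLP and HSC differences lost the threshold at the stricter peak limit and with CpG weighting.

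The change of the share of pairs with age differed between HSCs and other fractions at the peak numbers deposited. It was -3.09 points in HSCs relative to the other 7 fractions (permutation of ages within fractions, p = 0.0259). Against each of the 7 in turn, a comparison chosen after the values were seen, it was -5.49 points relative to MPP2 (exact permutation test, p = 0.0333 adjusted over the 7) and passed for no other, at -5.83 points relative to MEPs (adjusted p = 0.0667, exact permutation test) and -0.505 points relative to MPP4, whose value was close to that of HSCs (adjusted p = 0.881, exact permutation test). With the same number of peaks in every library, an alternative added after seeing the data, neither held, at -2.51 points relative to the other 7 (permutation p = 0.220) and -7.35 relative to MPP2 (exact permutation test, adjusted p = 0.478). The change of the excess over single promoters in HSCs was not past the threshold relative to any of the 7 (exact permutation test, lowest adjusted p = 0.100).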

How the results depend on the processing

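The excess of pairs over single promoters, in share called and in fold enrichment, kept its direction and its side of the threshold under every alternative run, and leaving out 1 library gave 45.5 to 45.6 points and a log2 ratio of 0.224 to 0.233. Many of the other comparisons depended on the settings, and the cause was not tested. The counts of regions at pairs called less or more often with age stayed at 0 with 1 library left out. A change in HSCs alone could not pass that test. The MEP difference in share was -10.0 points with peaks of a -log10 q of at least 10, -10.6 with peaks covering 50% of the region, -1.78 with peaks overlapping the window and -0.628 as log2 odds, but 9.16 at equal peak numbers, 1.77 with 1 kb windows, 7.14 with CpG weighting and, in the alternatives added after seeing the data, 14.2 among promoters with a region and 11.1 with CpG weighting as well (0.155 to 1.48 with 1 library left out). The MEP difference in log2 fold enrichment was 0.0106 at equal peak numbers and -0.0302 among promoters called in all libraries (-0.181 to -0.171 with 1 library left out). The age change of pairs was 0.202 at the stricter limit, 1.12 at equal peak numbers and 0.223 by overlap (-0.392 to 0.198). The age change of the excess was 0.346, 1.04 and 0.401 in these settings, 0.0338 with TSSs within 500 bp, 0.0105 within 300 bp, 0.0439 with CpG weighting and, in an alternative added after seeing the data, 0.0676 with CpG weighting among promoters with a region (-0.213 to 0.104).

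The HSC age difference was -3.64 at the stricter limit, -1.08 at equal peak numbers, -2.80 by overlap and -5.59 at 50% cover, none of which passed the threshold, and -3.16 to -1.99 with 1 library left out. With the replicate block it was -2.80 (exact sign test, p = 0.125, the smallest possible), and -3.44 in replicates 1 and 2 and -2.16 in replicates 3 and 4 alone. Same-numbered libraries had correlations of -0.0969 to 0.127 in HSCs and, with 2 numbers per age, of 0.0141 (MPP2) to 0.24 (GMPs) in the other fractions. The HSC values were not all positive and the labels name no shared batch, so the numbers were not taken as pairs. In limma the replicate block left 0 and 0 regions changed with age (8 and 21 at an unadjusted p under 0.05).

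Counts of regions at pairs were 131 (MEPs less), 45 (GMPs more), 1 (CLPs less), 2 (HSCs less) and 0 (HSCs more) at the stricter limit, and 1 (MEPs less), 27 (MEPs more), 24 (GMPs less), 1 (CLPs less), 10 (HSCs less) and 0 (HSCs more) at equal peak numbers. The shares of all regions in these settings are not given here. With 1 library left out the counts at pairs were 32 to 68 (MEPs less), 7 to 17 (GMPs more), 0 to 3 (HSCs less) and 0 to 1 (HSCs more). By limma, 444 were lower in MEPs without centring (98.9%, beside 96.5% of all regions) and 0 higher. These counts were 37 and 49 at the stricter limit, and 57 to 85 and 68 to 98 with 1 library left out. The CLP and HSC differences in share lost the threshold in 7 settings each. In all, 111 of 169 values under 20 settings kept their direction and side of the threshold (counts within 1.5 times), as did 785 of 836 values with 1 library left out. Depth is unknown, so a promoter without a call may be open below the limit of detection.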
